A study of Mus musculus with 4 samples.

Results

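Claudins are membrane proteins that form the strands of the tight junction, the seal between neighbouring epithelial cells. Some claudins close the gap between cells and others form pores that let ions or water through, so the set a cell makes helps fix how leaky the sheet is. In the stomach the seal holds acid in the lumen, and Cldn18 is the main gastric claudin. This account covers 10 claudin genes, Cldn1, Cldn2, Cldn3, Cldn4, Cldn5, Cldn7, Cldn8, Cldn12, Cldn18 and Cldn23, out of 19938 genes with a probe set of their own. They were taken by gene symbol in the platform annotation, from a list drawn up with earlier results of these data known. Each of the 10 had 1 probe set.

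RNA from adult mouse stomach was read on Affymetrix Mouse Gene 1.0 ST arrays, 1 array for each of 4 groups. The groups were mucous neck cells and zymogenic cells of wild-type mice, and the same cells of MIST1 knockout (Mist1-/-) mice, which lack a transcription factor of secretory cells, and all were on a C57BL/6 background. Neck cells make mucus midway along the gastric gland, and zymogenic (chief) cells at its base store digestive enzymes. Cells were cut from frozen sections by laser capture, and RNA of several dissections and mice was pooled before it was amplified, so that no array stands for 1 animal. Sections came from 4 wild-type and 5 knockout mice, with 2 caps of captured cells per mouse. Neither sex nor the mice behind each pool are given in the sources used here. For the zymogenic pools, cells were taken deeper than the signal of the lectin GS-II, which marks neck cell mucus, and without the outline of parietal cells, and claudins played no part in that choice.

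Because each group was a single array, the spread between replicates is unknown and no difference was tested. Values are array intensities on a linear scale, and differences are on the log2 scale. A gene was called detectable in a comparison when the higher of its 2 values reached an intensity of 43.7, the median over all 1-gene probe sets, and it was counted as different at 2-fold, a log2 difference of 1. That level is a rule of size, not a measured background. Intensities of different genes come from different probes, so the genes were not ranked against each other. In captured cells, a lower intensity from fewer cells of a type and one from less RNA per cell cannot be told apart.

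The arrays were alike in overall level, with medians of 37.9 to 40.9. Bhlha15, the gene of MIST1, read 59.7 in wild-type neck and 150 in wild-type zymogenic cells, and 20.2 and 22.0 in the knockout arrays, which goes with the labels. In both genotypes all 5 mucous neck markers passed 2-fold, with the lower value in zymogenic cells. Zymogenic markers summed to 14285 and 14191 in the neck arrays and to 23253 and 24732 in the zymogenic arrays. In both genotypes 4 of the 5 were higher in zymogenic cells, and the pepsinogen gene Pga5 went against its list, at differences of -5.45 and -6.53. Markers of other cells were present in every array. The summed intensity of 9 parietal cell markers was 9199 in wild-type neck, 4816 in wild-type zymogenic, 10155 in knockout neck and 8333 in knockout zymogenic cells, and none of them was at the floor.

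Of the 10 claudins, only Cldn12 and Cldn18 reached the detection level in all 4 arrays. Cldn3, Cldn4, Cldn5, Cldn7 and Cldn8 reached it in 1 to 3 arrays. Cldn1, Cldn2 and Cldn23 stayed under it in all 4. Counted by array, 5 of the 10 reached it in wild-type neck, 6 in wild-type zymogenic, 2 in knockout neck and 4 in knockout zymogenic cells, against 48.0 to 51.3% of all 1-gene probe sets. These counts turn in part on values close to the level. Cldn4, for one, read 49.0 and 48.4 in the wild-type arrays and 42.8 and 42.7 in the knockout arrays.

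**Figure D1:**
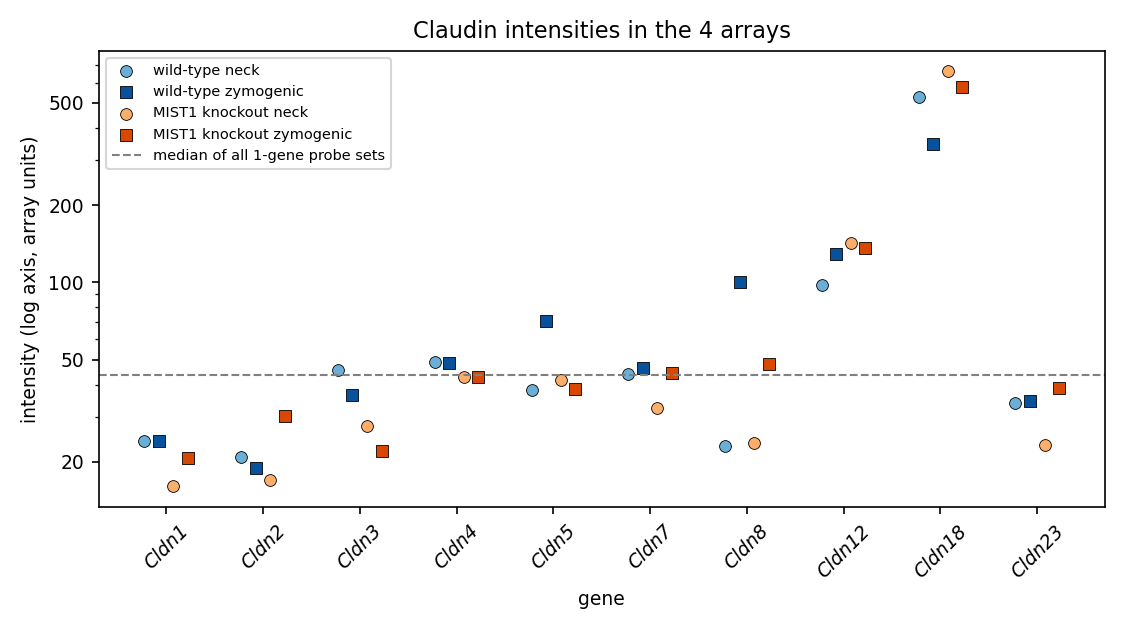
Intensity of each of the 10 claudins (log axis, array units) in the 4 arrays, 1 point per array, with the median of all 1-gene probe sets as a dashed line at 43.7. Cldn18 and Cldn12 lie above the line in every array, and Cldn8 spreads most widely, from 23.0 to 100.5.

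Cldn18 makes the claudin best known from gastric epithelium, and mice without it are known to leak acid across the stomach wall and to develop gastritis. The gene lies on chromosome 9 and has 2 annotated starts, which give products best known from lung and from stomach. The 250 bases before each start are shown because MIST1 belongs to the basic helix-loop-helix factors, which bind E-boxes (CANNTG), and CATATG is an E-box known from MIST1 targets. The sequences are from RefSeq, build GRCm38.p6, minus strand, 5′ to 3′, and capitals mark each E-box.
Cldn18, outer start, chr9:99717268-99717517: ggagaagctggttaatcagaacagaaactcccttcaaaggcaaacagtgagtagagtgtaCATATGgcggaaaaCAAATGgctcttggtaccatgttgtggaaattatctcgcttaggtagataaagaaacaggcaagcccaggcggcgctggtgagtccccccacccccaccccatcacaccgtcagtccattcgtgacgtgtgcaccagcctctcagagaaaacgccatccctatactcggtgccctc
Cldn18, inner start, chr9:99710064-99710313: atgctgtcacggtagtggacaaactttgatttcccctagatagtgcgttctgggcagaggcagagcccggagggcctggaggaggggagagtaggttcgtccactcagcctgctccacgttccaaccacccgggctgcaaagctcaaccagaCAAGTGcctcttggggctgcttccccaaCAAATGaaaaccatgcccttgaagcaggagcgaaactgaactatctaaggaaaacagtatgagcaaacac

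The outer window held 2 E-boxes, CATATG beginning 190 bases before the start and CAAATG at 176 bases. The inner window also held 2, CAAGTG at 98 and CAAATG at 70 bases, and no CATATG. Of 32851 windows of this length in the RefSeq table, 66.2% held CANNTG and 3.46% held CATATG. Both motifs read the same on both strands, and CATATG is one form of CANNTG. Of the 10 claudins, 8 matched the table, all but Cldn8 and Cldn23, with 12 windows between them, and the outer Cldn18 window was the only one with CATATG. The sources used here do not say which start gives the stomach product, so the CATATG cannot be placed before that product. A match of letters is not a binding site. The Cldn18 probe set is listed with 4 RefSeq transcripts, so the array value does not separate the products of the starts.

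Cldn18 had an intensity of 528 in wild-type neck, 347 in wild-type zymogenic, 663 in knockout neck and 577 in knockout zymogenic cells. It was thus lowest in the wild-type zymogenic array and highest in the knockout neck array, and lower in zymogenic than in neck cells of either genotype. Zymogenic minus neck was -0.61 in wild-type and -0.20 in knockout mice, or 1.52-fold and 1.15-fold lower. Knockout minus wild-type was 0.73 in zymogenic and 0.33 in neck cells, or 1.66-fold and 1.25-fold higher. None of these reached 2-fold, and the sign of each was kept under all 5 alternatives computed for a single gene's difference. Of these, the mean over probe sets could not change a value, since Cldn18 has 1 probe set. The pseudocount shrinks a difference but cannot turn its sign. Only quantile normalization, median centring and cyclic loess could have done so. The gap between the cell types was narrower in knockout mice by 0.41.

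Other epithelial and parietal genes were also low in the wild-type zymogenic array, and their part in the Cldn18 values was not tested. The summed intensity of 5 pan-epithelial genes was 1712 in wild-type neck, 923 in wild-type zymogenic, 1810 in knockout neck and 1210 in knockout zymogenic cells, and 3 of them had their lowest value in the wild-type zymogenic array. Epcam, an adhesion protein of epithelia, read 502, 275, 590 and 254 in the same order, and differed by -0.11 between the zymogenic arrays. Of 9 parietal markers, 8 were lowest in the wild-type zymogenic array. Among 4614 genes with a mean at or above the 75th percentile, 36.9% were lowest there, the largest share of the 4 arrays.

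Cldn12, an unusual claudin without the C-terminal motif that ties most claudins to the scaffold, read 97.8 in wild-type neck, 129 in wild-type zymogenic, 143 in knockout neck and 136 in knockout zymogenic cells. The wild-type neck array was the lowest and the other three lay within a narrow band. Its differences were 0.40 and -0.07 between cell types in wild-type and knockout mice, and 0.08 and 0.54 between genotypes in zymogenic and neck cells. All were under 2-fold. The gene has 3 annotated starts on chromosome 5, and the outermost is shown to set a window without an E-box beside those of Cldn18, from the same table, build and strand. That window held 0 E-boxes, as did those of the other Cldn12 starts, which overlap it. The windows of Cldn3 and Cldn5 and the outer window of Cldn7 held none either, so this is not particular to Cldn12.
Cldn12, outermost start, chr5:5514977-5515226: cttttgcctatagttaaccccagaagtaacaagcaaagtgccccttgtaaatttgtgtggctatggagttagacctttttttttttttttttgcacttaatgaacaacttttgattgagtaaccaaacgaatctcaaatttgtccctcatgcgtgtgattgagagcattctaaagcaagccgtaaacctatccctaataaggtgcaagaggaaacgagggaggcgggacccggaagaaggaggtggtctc

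Cldn8, a claudin best known from the distal nephron of the kidney and from the gut, was the only one of the 10 past 2-fold in any comparison. It read 23.0 in wild-type neck, 100.5 in wild-type zymogenic, 23.6 in knockout neck and 48.1 in knockout zymogenic cells. Both neck arrays were under the detection level and nearly equal, the wild-type zymogenic array was far above it, and the knockout zymogenic array was just over it. In wild-type mice Cldn8 was higher in zymogenic than in neck cells by 2.13 on the log2 scale, or 4.37-fold, a direction in which 6.27% of 11778 detectable genes passed 2-fold. In knockout mice it was higher by 1.03, or 2.04-fold, where 4.9% of 11322 did so. Knockout zymogenic cells were lower than wild-type zymogenic cells by a log2 difference of -1.06, or 2.09-fold, as were 5.23% of 11826 detectable genes, while the neck arrays differed by 0.04.

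The 2-fold calls for Cldn8 differ in how firm they are. The wild-type cell type difference stayed past 2-fold in all 7 alternatives, from 1.27 with a pseudocount of 32 to 2.16. Of these, leaving out the filter cannot remove a call, and the mean over probe sets leaves Cldn8 unchanged, as it has 1 probe set. The knockout cell type difference dropped under 2-fold with that pseudocount (0.53) and with each of 3 other normalizations (0.95 to 0.97), and the genotype difference did so with the pseudocount (-0.73). The knockout cell type call was also lost with the 75th percentile filter. The neighbour of Cldn8 on chromosome 16, Cldn17, read 9.10 to 22.4, below that level throughout.

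The summed intensities of endocrine, stromal and immune markers were also higher in both zymogenic arrays than in the neck arrays, and their part in the Cldn8 values was not tested. Endocrine markers summed to 5864 and 3789 in wild-type and knockout neck cells and to 8929 and 12973 in zymogenic cells. Fibroblast and smooth muscle markers summed to 620 and 410.1 in neck and to 1471 and 1745 in zymogenic cells, and immune markers to 362 and 197 in neck and to 495 and 435 in zymogenic cells. Single markers did not all follow the sums. Higher in zymogenic cells were 7 of 7 endocrine, 10 of 10 stromal and 6 of 7 immune markers in wild-type mice, and 6 of 7, 9 of 10 and 6 of 7 in knockout mice. Cd53, a leukocyte membrane protein, was 2-fold lower in wild-type zymogenic than neck cells, at -1.05. None of these markers was at the floor.

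**Figure D2:**
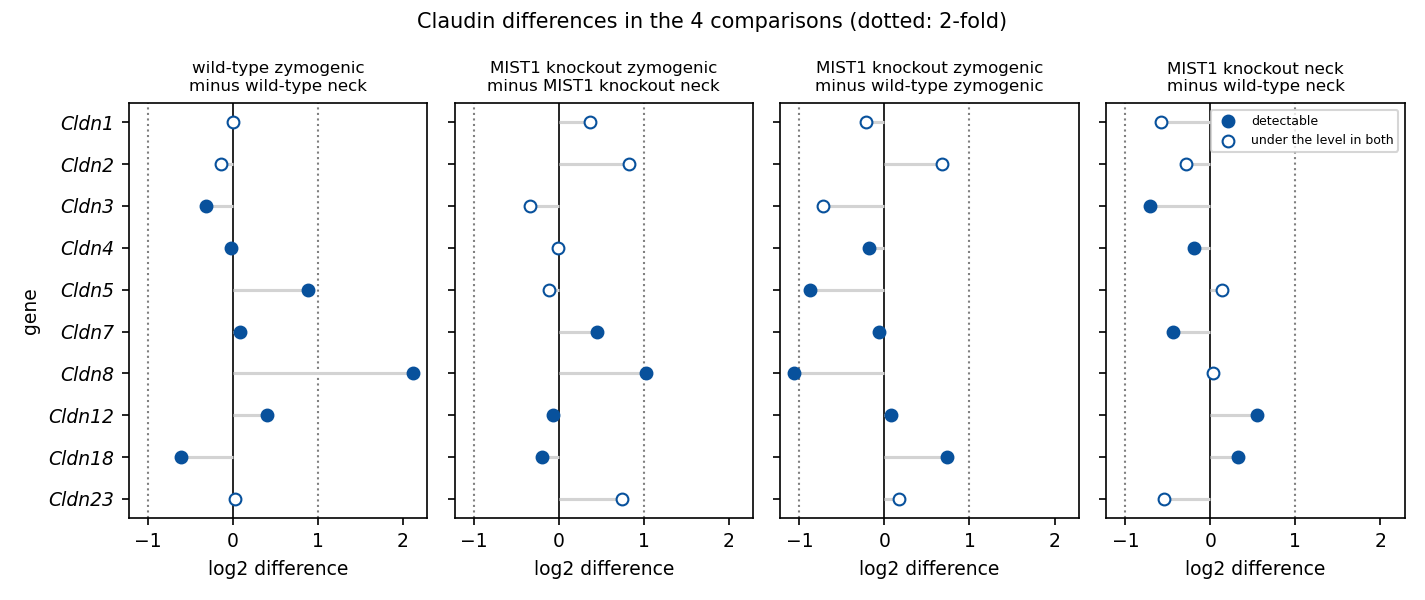
Log2 difference of each of the 10 claudins in the 4 comparisons, with filled points for genes detectable in that comparison, open points for genes under the level in both arrays, and dotted lines at 2-fold. Cldn8 alone passes a dotted line, at 2.13, 1.03 and -1.06, and the neck comparison has no point past 2-fold.

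Cldn5 makes the main claudin of blood vessel endothelium. It read 38.1 in wild-type neck, 70.4 in wild-type zymogenic, 41.7 in knockout neck and 38.5 in knockout zymogenic cells. Only the wild-type zymogenic array was above the detection level, and the other three lay close together. The difference was 0.89 between cell types in wild-type mice and -0.87 between genotypes in zymogenic cells, both under 2-fold, against -0.12 between cell types in knockout mice and 0.13 between genotypes in neck cells. The summed intensity of 10 endothelial markers was 448 in wild-type neck, 431 in wild-type zymogenic, 379 in knockout neck and 449.7 in knockout zymogenic cells, and their part in the Cldn5 values was not tested. Of the 10, 4 were higher and 6 lower in wild-type zymogenic than in wild-type neck cells, and none was at the floor. Many were low, however, and 4, 4, 2 and 5 of the 10 reached the detection level in the same order of arrays. Cdh5, the cadherin of endothelium, read 46.7, 48.9, 47.5 and 52.1 in the same order of arrays. Tek, an angiopoietin receptor of endothelium, read 27.6, 44.8, 25.5 and 32.1 and, like Cldn5, reached the detection level only in the wild-type zymogenic array. Emcn, another of the 10 markers, went the other way. It read 65.15, 39.88, 55.96 and 47.32 and was under the detection level only in the wild-type zymogenic array.

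Cldn3 and Cldn4, sealing claudins that also bind a bacterial enterotoxin, lie next to each other on chromosome 5. Cldn3 read 45.4 in wild-type neck, 36.4 in wild-type zymogenic, 27.7 in knockout neck and 22.0 in knockout zymogenic cells. Both knockout arrays were lower than both wild-type arrays, with knockout minus wild-type at -0.71 in neck and -0.73 in zymogenic cells, and zymogenic minus neck at -0.32 and -0.33. Only the wild-type neck value reached the detection level, and the genotype differences were -0.37 and -0.34 with the pseudocount of 32. Cldn4 read 49.0, 48.4, 42.8 and 42.7 in the same order. Its knockout values were also the lower ones, by -0.20 in neck and -0.18 in zymogenic cells, and its cell type differences were -0.02 and -0.01.

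Cldn7, a claudin found along the sides of epithelial cells and known to bind EPCAM, read 43.8 in wild-type neck, 46.5 in wild-type zymogenic, 32.4 in knockout neck and 44.3 in knockout zymogenic cells. The knockout neck array was the low one, at -0.43 against wild-type neck, and the others lay just over the detection level. Cldn1, a sealing claudin known from the skin barrier, read 24.0, 24.1, 16.1 and 20.8. Cldn2, which forms a pore for cations and water, read 20.8, 18.9, 17.1 and 30.3, and Cldn23 read 33.9, 34.6, 23.2 and 38.9. In all 4 of these genes the knockout neck array was the lowest, and they were the only ones of the 10 claudins lowest there. That array also had the lowest median of all probe sets, 37.9. Among genes with a mean at or above the 75th percentile, a level that none of the 4 reached, 18.8% were lowest there. The sets compared are thus unlike in level, and the share over all genes was not computed. With no filter, 556 genes were at least 2-fold lower and 333 higher in knockout than in wild-type neck cells. Since Cldn1, Cldn2 and Cldn23 were under the detection level throughout, the size of their differences is not firm. The largest was 0.83, for Cldn2 between the cell types of knockout mice, and it was 0.34 with the pseudocount of 32.

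As a set, the 10 claudins showed no common direction. Over all 10, with no filter, the median zymogenic minus neck difference was 0.02 in wild-type mice, with 6 above and 4 below 0, and 0.18 in knockout mice, with 5 above and 5 below. Over all 19938 genes these medians were 0.05 and 0.05. The median knockout minus wild-type difference was -0.13 in zymogenic cells, with 4 above and 6 below 0, and -0.24 in neck cells, also with 4 above and 6 below, where all genes had -0.01 and -0.03. In neck cells 5 of the 10 were detectable between the genotypes and 0 passed 2-fold either way, in a comparison where 4.29% of detectable genes did.

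The other 18 claudin genes with a probe set of their own read between 9.10 and 66.1. Of these, 8 reached the detection level in some array, and only Cldn19, known from kidney and nerve, did so in all 4, at 59.9 to 66.1. Cldn24 read 18.1 in wild-type neck, 58.7 in wild-type zymogenic, 14.0 in knockout neck and 15.8 in knockout zymogenic cells. Only its wild-type zymogenic value reached the detection level. It was 1.70 higher in wild-type zymogenic than neck cells, and knockout minus wild-type was -1.89 in zymogenic cells. Of the 18, it was the only one past 2-fold in these directions, among 4 and 7 detectable. Of all detectable genes, 6.27% and 5.23% were so. Cldn24 was singled out, with Cldn10 and Cldn19, after the values were seen. Cldn10 read 15.2, 27.0, 20.2 and 52.0 in the same order, and only the last value reached the detection level. These are from the probe set of the higher mean of its 2, and the other is not shown. Cldn10 was past 2-fold between the cell types of knockout mice, at 1.37. It was 1 of 6 detectable among the 18 to be so, against 4.9% of all detectable genes. Cldnd1, a claudin-like gene singled out after its values were seen, read 366, 154, 471 and 316, lowest and highest in the same arrays as Cldn18. It differed by -1.25 between the cell types of wild-type mice and by 1.04 between the genotypes in zymogenic cells.

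Claudins work with other proteins of the tight junction: the membrane proteins occludin, tricellulin and the JAM family, and the scaffold and polarity proteins under the membrane. Of 22 such partners measured, 21 were detectable between the wild-type cell types, where 3 passed 2-fold with a lower and 1 with a higher value in zymogenic cells, against 6.78% and 6.27% of all detectable genes. F11r, which encodes JAM-A, read 367 in wild-type neck, 125 in wild-type zymogenic, 344 in knockout neck and 332 in knockout zymogenic cells, so that a single array stood apart, at -1.56 against wild-type neck. Ocln, occludin, read 122, 55.2, 125 and 101.5 and differed by -1.14. Crb3, a polarity protein of the apical membrane, read 186, 83.1, 110 and 145 and differed by -1.16. Jam3, a JAM of endothelium and other cells, went the other way by 2.33, from 10.96 to 55.2.

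Between the genotypes in zymogenic cells, 2 of 22 detectable partners were at least 2-fold higher in the knockout, F11r by 1.42 and Jam2, another JAM of endothelium, by 1.14, and 0 were lower. Of all detectable genes, 5.15% were at least 2-fold higher here and 5.23% lower. Ocln was higher by 0.88 and Crb3 by 0.81. Tjp1, which encodes the scaffold protein ZO-1, differed by 0.52. The partners' median over all 22 was -0.18 between the cell types of wild-type mice and 0.29 between the genotypes in zymogenic cells. These comparisons share the wild-type zymogenic array, so their opposite signs are not separate observations.

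Between the cell types of knockout mice 3 partners passed 2-fold. Cxadr, a virus receptor of the junction, differed by -1.47, from 361 in neck to 131 in zymogenic cells, while Marveld3 was higher by 1.17 and Jam2 by 1.25. There were 21 detectable partners, and 9.7% of all detectable genes passed either way. Jam3 was again higher in zymogenic cells, by 1.08, but was under the detection level in both knockout arrays, and Cxadr differed by -0.65 in wild-type mice. Between the genotypes in neck cells 0 of 20 detectable partners passed 2-fold, where 4.29% of all detectable genes did.

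The adherens junction is the belt of cadherin contacts below the tight junction. Of its 10 genes measured, 6 were lowest in the wild-type zymogenic array and 7 were highest in knockout neck cells. Of the genes with a mean at or above the 75th percentile, 36.9% and 29.4% were so. Several of the 10, Nectin1 among them, had means under that level, so the sets compared are unlike in level. Cdh1, E-cadherin, read 364 in wild-type neck, 185 in wild-type zymogenic, 505 in knockout neck and 380 in knockout zymogenic cells, the same order as Cldn18. It differed by -0.97 between the cell types of wild-type mice and by 1.03 between the genotypes in zymogenic cells, the only gene of this list past 2-fold in any comparison. Of 5 desmosome genes, Dsg2, a desmosomal cadherin, was past 2-fold once, at 1.02 between the cell types of knockout mice, where 4 of the 5 were detectable and 4.9% of all detectable genes were at least 2-fold higher.

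**Figure D3:**
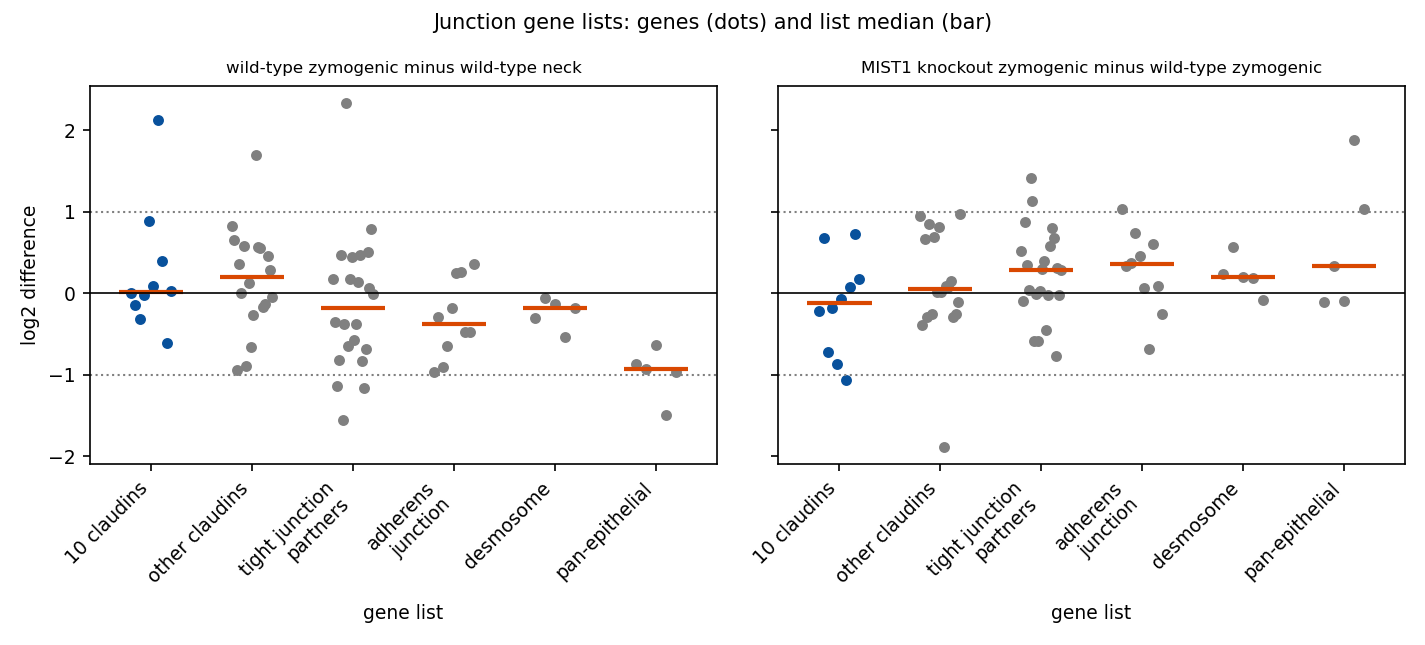
Log2 differences of single genes (dots) and list medians (bars) for the 10 claudins, the other claudins, tight junction partners, adherens junction, desmosome and pan-epithelial genes, between wild-type cell types (left) and between genotypes in zymogenic cells (right), with dotted lines at 2-fold. The claudin medians are 0.02 and -0.13, and the pan-epithelial medians are -0.94 and 0.33.

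Genes with the pattern nearest to a claudin's were taken among 4613 or 4614 genes with a mean at or above the 75th percentile, by the Euclidean distance of log2 values centred on each gene's mean over the 4 arrays. For Cldn18 they were Ptprd at a distance of 0.03, Enpp5 at 0.06, and Nfe2l1, Twf1 and H3f3a, each at 0.07. Ptprd, a receptor phosphatase, read 535 in wild-type neck, 347 in wild-type zymogenic, 669 in knockout neck and 593 in knockout zymogenic cells. For Cldn8, which had the widest range of the detectable claudins at 2.13, the nearest were Lyrm9 at 0.10, Ggh at 0.21, Capn2 at 0.34, Hbs1l at 0.41 and Sugp1 at 0.45. Ggh, an enzyme that trims folates, read 174, 706, 157 and 298 in that order. A pattern over 4 arrays can be matched by many genes, and the distances are a description only.

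**Figure D4:**
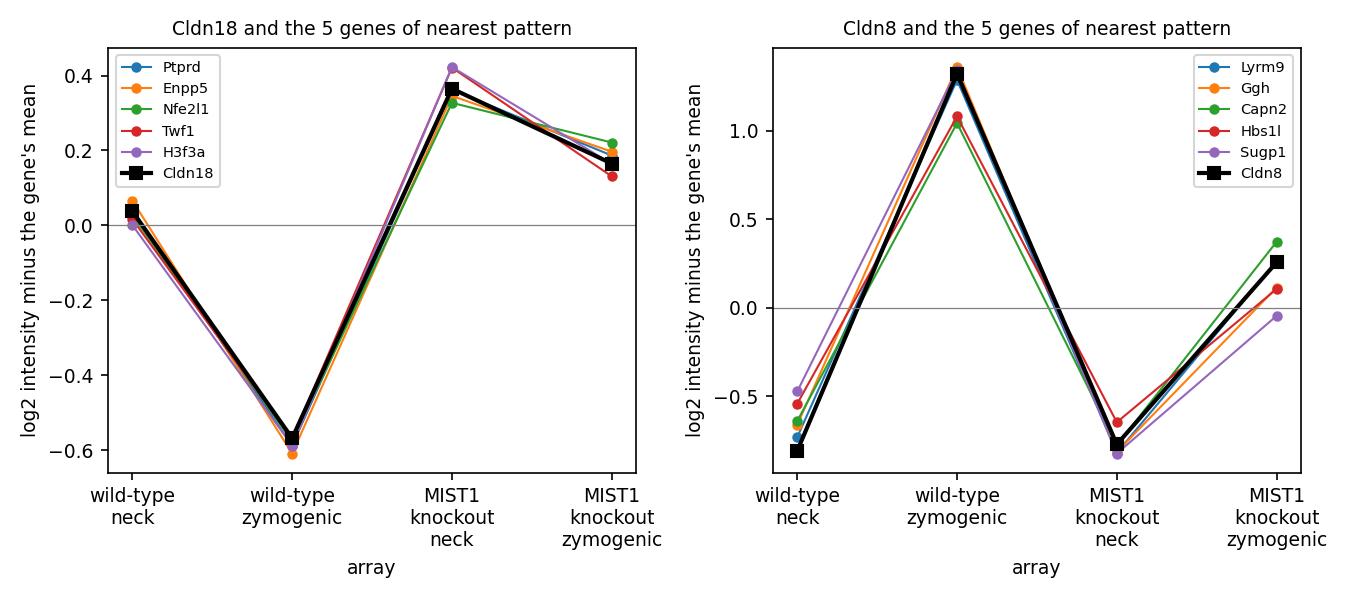
Log2 intensity minus the gene's mean over the 4 arrays for Cldn18 (left) and Cldn8 (right), in black, with the 5 genes nearest to each in colour. Cldn18 and its nearest genes dip in the wild-type zymogenic array, while Cldn8 and its nearest genes peak there.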

How the data were processed

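Expression was measured in 4 groups of laser-captured cells, 1 array each. Per the series design text the authors worked in dChip, and the deposited table holds 1 linear intensity per probe set and array. How background, probe summary and scaling were handled there is not stated in the labels, so signal over background is unknown, and precision is limited by having 4 arrays. Of 35512 probe sets, the 21789 listed with exactly 1 gene were used. All 10 claudins matched RefSeq by Entrez identifier under the same symbol. Intensities under 1 were set to 1 before log2 was taken. Where a gene had more than 1 probe set, that of the highest mean stood for it. No test was made, since each group had 1 array. The counting was tested on simulated data, with noise of a chosen size and changes planted only in genes at or above the 75th percentile. Most of the 10 claudins lie under that level, so the simulation does not show how well they are counted. The members, lists and rules were chosen with earlier results of these data known. Genes named were the 10 claudins, members of the junction and marker lists, and the 5 nearest patterns for Cldn18 and for the claudin of widest range. Alternatives were a pseudocount of 32, quantile normalization, median centring, cyclic loess (limma 3.58.1), no filter, a 75th percentile filter and the mean over probe sets. Python 3.11.15, pandas 2.3.3 and R 4.3.3 were used.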

Additional observations from a re-analysis of the deposited data

Results flagged for a closer look

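Cldn8 is listed because the sign of knockout minus wild-type differed between the cell types, at -1.06 on the log2 scale in zymogenic cells and 0.036 in neck cells. The neck value is close to 0 and both neck arrays were under the detection level, so it gives no direction. The difference between the cell types was not tested.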

How the results depend on the processing

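Of 56 recomputed counts of claudins past 2-fold, 50 stayed as reported and 6 moved, all of them through Cldn8. For the cell types of knockout mice, the count of claudins higher in zymogenic cells went from 1 to 0 with the pseudocount of 32, quantile normalization, median centring, cyclic loess and the 75th percentile filter. For the genotypes in zymogenic cells, the count of lower claudins went from 1 to 0 with the pseudocount. Of 200 recomputed differences of single claudins, 195 stayed on their side of 2-fold and 5 did not. The mean over probe sets could move none of these counts or differences, since each claudin has 1 probe set. Its share of the unchanged ones is therefore no sign of firmness. The pseudocount only shrinks differences and the 75th percentile filter only removes genes, so neither could raise a count. Leaving out the filter could not lower one. A count of 0 that stayed under the pseudocount or the 75th percentile filter is thus no sign of firmness either. The same holds for a difference under 2-fold that stayed so with the pseudocount. The differences of Cldn1 and Cldn23 between the cell types of wild-type mice, at 0.0042 and 0.03, turned sign under 3 of 5 alternatives. The others, the pseudocount and the mean over probe sets, could not turn a sign. Among all genes, those past 2-fold numbered 739 higher and 799 lower between wild-type cell types, 555 and 543 between knockout cell types, 609 and 619 between genotypes in zymogenic and 207 and 263 in neck cells. With the pseudocount these were 262 and 314, 214 and 222, 166 and 179, and 28 and 53, and with the 75th percentile filter 398 and 555, 313 and 348, 369 and 347, and 104 and 120. With no filter the wild-type count of higher genes was 1166, the count of lower genes in zymogenic cells was 1167, and the neck counts were 333 and 556. The smaller counts follow from the pseudocount shrinking low values and from fewer genes tested. With no replicate arrays, no array could be left out. No paired analysis was possible because each group has 1 array.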
